A study of Mus musculus with 9 samples.

Results

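Rtn4rl1 and 8 other genes of the Nogo receptor pathway were followed through 9 single-cell RNA libraries of mouse cultures undergoing conversion to induced neurons (iNs). The 9 genes were taken by symbol from the 30406 gene identifiers that all the deposited feature tables shared: the receptors Rtn4r, Rtn4rl1 and Rtn4rl2, the ligands Rtn4, Mag and Omg, and the co-receptors Lingo1, Ngfr and Tnfrsf19. Rtn4rl1 was chosen by a measured value, its lower level in macrophages of the Per1-/- libraries. That contrast is therefore given below as a description, and its calls support nothing.

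The starting cells were mouse embryonic fibroblasts (MEFs), dissociated from mid-gestation embryos without head and heart, with the cells of several embryos pooled in a dish. All cultures, WT included, had received lentiviruses with doxycycline-driven transcription factors for the conversion. The genotypes were WT, Per1-/- and Per2-/- (the Drw null alleles of the circadian regulators Per1 and Per2 in B6.129 mice), each sampled on days 4, 7 and 10 of conversion, with 1 library per genotype and day. With no second library of any culture, the 3 days of a genotype stood in for replicates in the fits of genotype. In the fits of day 10 against day 4, the 3 genotypes of a day did so. Tests between classes paired the classes within the 9 libraries. No p-value below measures the spread between cultures of the same genotype and day. The labels call the cells induced neurons, but the cultures also hold cells that did not convert and other cell types, whose origin was not tested. The comparisons below cover these as well as neuron-like cells.

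NOGO (the product of Rtn4), MAG and OMgp are membrane proteins known from myelin that halt growing axons. They bind Nogo receptors, leucine-rich repeat proteins held at the cell surface by a lipid anchor. The anchored receptors have no intracellular part, and pass the signal to the small GTPase RhoA through LINGO-1 together with p75 (Ngfr) or TROY (Tnfrsf19). The product of Rtn4rl1, also called NgR3, is known as a receptor for the chondroitin sulfate chains of extracellular matrix proteoglycans, and in macrophages Nogo receptors have been linked to adhesion and movement on myelin.

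After filters, 73547 cells remained, between 5620 and 10514 in a library with a median of 14262 to 27247 unique molecular identifiers (UMIs) per cell. Pairs of libraries shared at most 29 cell barcodes. The WT day 10 library stood apart, since 55.4% of its barcodes passed the filters against 86.1 to 94.5% in the others. Clusters were named from marker genes, and the members and their partner genes were kept out of the clustering. All 14 macrophage markers were highest in macrophage-like cells, as were 13 of 15 neuron, 10 of 15 fibroblast, 9 of 12 Schwann, 12 of 14 muscle, 10 of 10 astrocyte and 9 of 10 mesothelial markers in their own class. There were 6511 macrophage-like, 8835 neuron-like, 37538 fibroblast-like, 2767 skeletal muscle-like, 2582 Schwann-like, 1019 astrocyte-like and 562 mesothelial-like cells. One unnamed cluster, which had 12 of the 14 macrophage markers high but few UMIs per cell, held 1516 cells of WT day 10, more than the 271 macrophage-like cells of that library, and at most 59 of any other. The level of Rtn4rl1 and the changes of Rtn4rl1 and Rtn4 with time in macrophage-like cells are given below with its cells added as well. Per1 itself was not lower in Per1-/- libraries (9.11 to 10.3 counts per 1e6 UMIs, CPM, over all cells, against 6.31 to 7.85 CPM in WT libraries). Per2 was likewise not lower in Per2-/- libraries (4.99 to 6.403 CPM against 2.58 to 3.07 CPM in WT libraries). Where the counted 3′ tags lie relative to the deleted parts was not checked, so neither target gene checks its label here. Xist, which is made by cells with 2 X chromosomes, was under 0.1 CPM in the Per1-/- day 7 and day 10 libraries and at 345 CPM or more in the other 7. The Per1-/- cells of day 4 thus differed in sex from those of the later days, which bears on every contrast of days below.

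Classes differed in how firmly their borders were set. With 4 other random seeds of the clustering, the rebuilt macrophage-like class shared 99.2 to 99.3% of all cells in either version, the Schwann-like 99.5 to 100%, the astrocyte-like 99.4 to 100%, the mesothelial-like 86.6 to 99.1%, the fibroblast-like 81.8 to 90.6%, the neuron-like 75.4 to 87.8% and the skeletal muscle-like 19.2 to 53.1%. Values of members over these seeds are given beside the main statements on the neuron-like and muscle-like classes, and no tests were run over them.

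Levels below are given as CPM in the summed cells of a class in a library. A 3′ count is not scaled by gene length, so levels are compared between cells and not between genes. Intervals in brackets are exact 95% Poisson intervals, which cover counting error only.

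The receptors come first. In macrophage-like cells Rtn4rl1 stood at 17.6 CPM [13.6-22.4] in the WT library on day 4, 21.8 CPM [19.4-24.5] on day 7 and 32.5 CPM [28.3-37.1] on day 10. The Per2-/- libraries had 17.2, 21.8 and 28.3 CPM on the same days. The Per1-/- libraries had 5.38 CPM [4.29-6.67], 5.58 CPM [4.79-6.46] and 8.61 CPM [7.62-9.697]. All 3 Per1-/- values lay below all 6 values of the other genotypes, the highest of the former being 8.61 CPM and the lowest of the latter 17.2 CPM. The ratio of Per1-/- to WT was 0.306 [0.219-0.429] on day 4, 0.256 [0.211-0.309] on day 7 and 0.265 [0.221-0.318] on day 10. The fitted log2 fold was -1.78 ± 0.11 (SE, edgeR, 9 libraries, with day as a term). In the unnamed cluster with macrophage markers Rtn4rl1 was at 9.99 CPM [8.11-12.2] in WT day 10, and with its cells added the WT day 10 level became 19.1 CPM and the ratio of that day 0.445 [0.378-0.524].

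**Figure D1:**
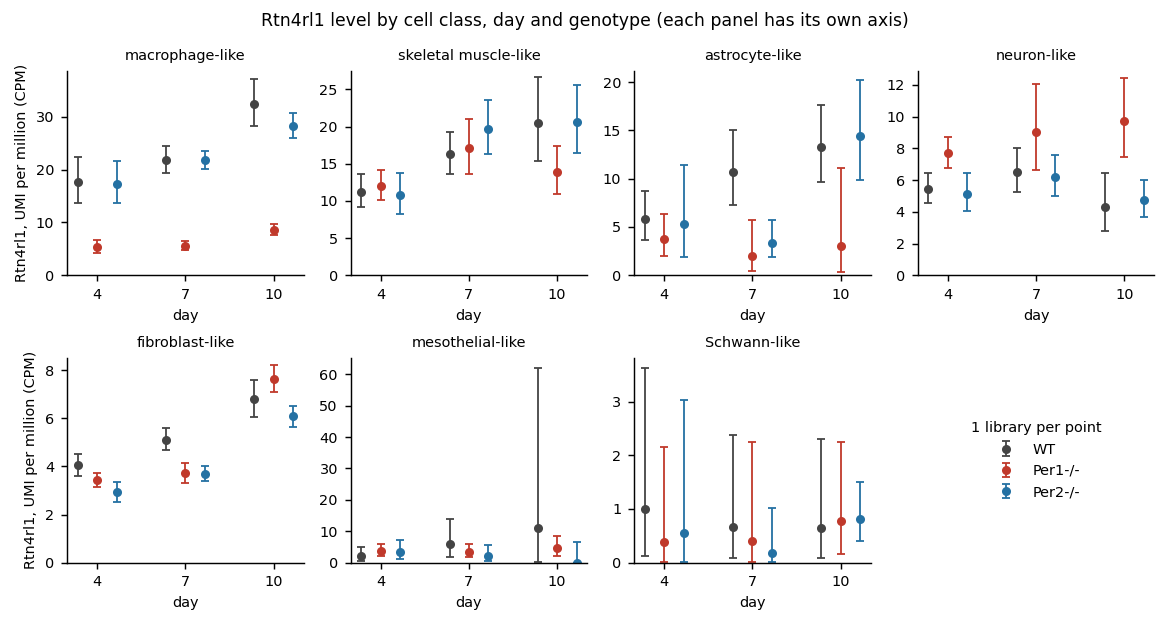
Rtn4rl1 in CPM (vertical axis, linear, separate for each panel) by day (horizontal axis) in 7 cell classes. Each point is 1 library, coloured by genotype, and bars are exact 95% Poisson intervals; in macrophage-like cells the Per1-/- libraries sit between 5.38 and 8.61 CPM and all others at 17.2 CPM or above.

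In single cells, a UMI of Rtn4rl1 was found in 33.1%, 33.9% and 45.4% of WT macrophage-like cells on days 4, 7 and 10, in 23.8%, 36.8% and 36.3% of Per2-/- cells and in 13.6%, 10.3% and 16.2% of Per1-/- cells. When every cell was thinned to 5000 UMIs to take out differences in depth, with at most 22 shallower macrophage-like cells left out of a library, the shares became 5.71%, 8.92% and 19.3% in WT cells, 9.45%, 9.57% and 14.1% in Per2-/- cells and 2.39%, 2.66% and 4.32% in Per1-/- cells. Schwann-like cells, in which the gene was lowest, held a UMI in 0.329 to 1.802% of cells before thinning and in 0 to 0.901% after it. The share in Per1-/- macrophage-like cells was above that floor in all 3 libraries. Median depths of the macrophage-like cells lay between 18353 and 35660 UMIs, the deepest being the Per1-/- day 4 cells, and those of the Schwann-like cells between 10464 and 20651 UMIs.

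The same contrast was described within macrophage-like cells, which formed 3 clusters: a main one of 4294 cells led by Fcgr2b, Fcrls and Pf4, one of 1540 cells led by C5ar1, a complement receptor gene, Tnip3 and Npy, and one of 677 cells led by genes that included Ighm, Siglech and Cx3cr1, of which the latter 2 are known from microglia. With the 4 other seeds the closest cluster shared 82.7 to 84.2% of cells with the main, 78.2 to 90.5% with the Siglech and 51.3 to 57.6% with the C5ar1 cluster, so the border between the main and C5ar1 clusters was loose. In the main cluster Rtn4rl1 was at 24.1, 21.1 and 35.4 CPM in WT cells and 3.27, 4.15 and 8.26 CPM in Per1-/- cells of days 4, 7 and 10. The C5ar1 cluster had 12.01, 13.3 and 19.03 CPM in WT cells and 3.48, 2.99 and 4.37 CPM in Per1-/- cells. Ratios of Per1-/- to WT were 0.135, 0.196 and 0.234 in the main cluster and 0.2902, 0.225 and 0.2297 in the C5ar1 cluster.

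The Siglech cluster held the highest levels of Rtn4rl1 in each library. WT cells had 28.2 CPM [16.97-44.01], 53.2 CPM [43.4-64.7] and 56.05 CPM [41.6-73.9] on days 4, 7 and 10, and Per2-/- cells had 37.8, 50.4 and 43.4 CPM. Per1-/- cells had 24.8 CPM [17.3-34.5], 33.3 CPM [25.7-42.3] and 29.2 CPM [21.6-38.6]. The Per1-/- value was the lowest of the 3 genotypes on each day. The ratio of Per1-/- to WT was 0.88 [0.4898-1.63] on day 4, 0.625 [0.451-0.8605] on day 7 and 0.521 [0.344-0.788] on day 10. These are values of single libraries in the contrast that chose the gene, and whether clusters differ was not tested.

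Within Per1-/- libraries the Siglech cluster exceeded the main cluster 7.59-fold [3.85-16.1], 8.02-fold [5.72-11.2] and 3.53-fold [2.53-4.85] on days 4, 7 and 10, against 1.17-fold, 2.52-fold and 1.58-fold in WT and 2.09-fold, 2.47-fold and 1.65-fold in Per2-/- libraries. A split that used no clusters gave the same order: cells with no Siglech UMI had 13.9, 16.6 and 29.04 CPM in WT and 3.66, 3.68 and 7.51 CPM in Per1-/- libraries, and cells with one had 37.4, 50.3 and 45.7 CPM in WT and 18.7, 29.6 and 29.04 CPM in Per1-/- libraries. The Siglech cluster made up 5.999 to 10.95% of macrophage-like cells in Per1-/- libraries, 13.9 to 19.7% in WT and 9.59 to 17.8% in Per2-/- libraries. That share was smallest in the Per1-/- library on each day. Its part in the lower level of all macrophage-like cells was not tested.

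**Figure D2:**
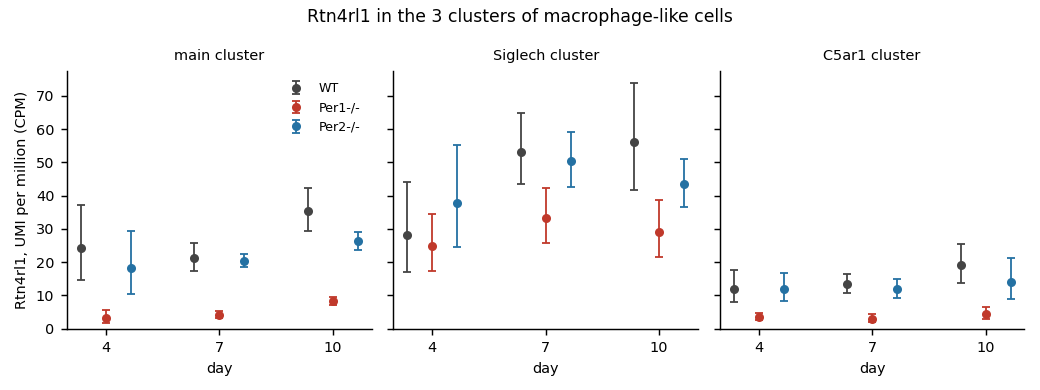
Rtn4rl1 in CPM (vertical axis, linear and shared) by day (horizontal axis) in the 3 clusters of macrophage-like cells. Points are single libraries with exact 95% Poisson intervals; Per1-/- cells sit at 2.99 to 8.26 CPM in the main and C5ar1 clusters and at 24.8 to 33.3 CPM in the Siglech cluster.

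The sex of the cells differed between genotypes, so levels were also read within it. Macrophage-like cells with a UMI of a Y-linked gene and none of Xist had 13.7, 18.8 and 41.01 CPM of Rtn4rl1 in WT, 22.6, 21.6 and 29.6 CPM in Per2-/- and 6.25, 5.63 and 8.54 CPM in Per1-/- libraries. Cells with a UMI of Xist and none of a Y-linked gene had 17.8, 22.1 and 32.6 CPM in WT libraries and 15.3, 21.6 and 29.2 CPM in Per2-/- libraries, and 4.78 CPM in the Per1-/- day 4 library, the only one of that genotype with over 1 such cell. The Per1-/- level was the lowest among Y-linked cells on each day and, among Xist cells, on day 4. The WT value of Y-linked cells on day 4 came from only 10 UMIs in 30 cells. Its interval [6.56-25.2] overlapped that of Per1-/- [3.96-9.38]. This describes the contrast that chose the gene, and the part of sex in it was not tested.

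Of the 9 genes, 4 passed the filter on low counts in macrophage-like cells (Rtn4rl1, Rtn4, Mag and Ngfr). In the fit of Per1-/- against WT over all 12941 genes, 3 genes or 0.0232% passed an adjusted p of 0.05, namely Dbp, a circadian output gene (log2 fold 1.20 ± 0.13), Snai2, which encodes a transcription factor of mesenchymal cells (-1.63 ± 0.17), and Rtn4rl1. The rule had used this contrast, so nothing is read from that count. Rtn4rl1 was not among the genes called with a Y-linked covariate, where its log2 fold was -1.67. In Per2-/- against WT, 0 of the 4 genes and 0% of all genes passed (edgeR; 2128 genes had an unadjusted p under 0.05 and DESeq2 called 283). Rtn4rl1 had a log2 fold of 0.01 ± 0.11 there (adjusted p = 0.987), and the Per2-/- to WT ratio was 0.9802 [0.696-1.38], 1 [0.8703-1.15] and 0.871 [0.743-1.02] on the 3 days. In cells gated on a UMI of at least 5 of the 14 macrophage markers in place of clusters, the Per2-/- to WT ratio was 0.999 [0.711-1.41], 0.6695 [0.585-0.767] and 0.832 [0.725-0.957], and the Per1-/- to WT ratio was 0.304, 0.2797 and 0.358. The gate held more cells than the class in every library, and unevenly so. In Per2-/- day 7 it held 1761 against 1178 cells, and in WT day 10 1154 against 271, at a median of 5345.5 UMIs. With the unnamed cluster added to the class, the Per2-/- to WT ratio of day 10 was 1.44, so the order of WT and Per2-/- on that day depended on which cells were counted.

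Rtn4rl1 was higher on day 10 than on day 4 in macrophage-like cells of every genotype, but the call depended on which cells were counted. From day 4 to day 10 the log2 fold was 0.81 ± 0.11 (adjusted p = 0.00499), and 2 of the 4 members tested passed, Rtn4rl1 and Rtn4, where 14.6% of all genes did. From day 4 to day 7, libraries made with the same software version, WT cells went from 17.6 to 21.8 CPM, Per2-/- cells from 17.2 to 21.8 CPM and Per1-/- cells from 5.38 to 5.58 CPM. In the cells gated on markers the levels on days 4, 7 and 10 were 16.5, 20.7 and 22.7 CPM in WT, 5.01, 5.78 and 8.13 CPM in Per1-/- and 16.4, 13.8 and 18.9 CPM in Per2-/- cells, the last falling from day 4 to day 7, and the fold from day 4 to day 10 did not pass (0.39, adjusted p = 0.408, edgeR). With the unnamed cluster added to the class it did not pass either (0.54, adjusted p = 0.188, edgeR). The part of the cells that the gate added to those of the class, as given above, was not tested. The day 10 libraries differed from the others in software version and gene annotation, and time and annotation cannot be told apart in this contrast. In Per1-/- libraries Xist was at 487 CPM over all cells on day 4 and under 0.1 CPM on days 7 and 10. Time and the sex of the cells therefore cannot be told apart in that genotype, from day 4 to day 7 or to day 10. The make-up of the class changed with time as well. The C5ar1 cluster held 60.6, 62.1 and 61.9% of macrophage-like cells on day 4 in WT, Per1-/- and Per2-/- libraries and 29.2, 14.3 and 5.07% on day 10, and the main cluster, with more Rtn4rl1 in WT and Per2-/- cells, went from 19.7, 26.9 and 20.3% to 56.8, 79.7 and 77.8%. Within the main cluster Rtn4rl1 was at 24.1, 3.27 and 18.1 CPM on day 4 and 35.4, 8.26 and 26.3 CPM on day 10 in the same order of genotypes. Within the C5ar1 cluster it was at 12.01, 3.48 and 12 CPM and 19.03, 4.37 and 14.1 CPM. Each day 10 value was the higher one in both clusters, but the part of the shift between clusters in the fold of the class was not tested.

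By class means, Rtn4rl1 outside macrophages was highest in skeletal muscle-like cells. Its mean over the 9 libraries was 17.6 ± 9.65 CPM (SD) in macrophage-like, 15.8 ± 3.96 in skeletal muscle-like, 6.83 ± 4.69 in astrocyte-like, 6.53 ± 1.91 in neuron-like, 4.83 ± 1.67 in fibroblast-like, 4.002 ± 3.15 in mesothelial-like and 0.601 ± 0.252 in Schwann-like cells. Of the neighbours in that order, muscle-like exceeded astrocyte-like cells in 9 of 9 libraries and passed (adjusted p = 0.0268, exact sign-flip permutation test paired by library, corrected over the 48 neighbouring pairs of all genes, 2-sided). This and the 8 other calls between neighbouring classes given below were all lost when WT day 4, Per2-/- day 4 or any day 7 library was left out. The muscle-like class was loosely bordered, and its mean over the 4 other seeds was 9.05 to 16.2 CPM, against 6.83 to 6.86 CPM in astrocyte-like cells. Over those seeds the neuron-like mean was 4.6 to 6.66 CPM and the fibroblast-like mean 4.05 to 5.64 CPM. Fibroblast-like cells were the higher ones in some of them, so no order of this pair is read. The fibroblast-like mean covered unlike clusters. The 2 with only the 10 of 15 markers that the name required, led by Wnt4, Syt13 and Sv2b and by Kif26a, Kcne1l and Rab3b, had 15.9 to 31.01 CPM of Rtn4rl1 together, above the muscle-like level (10.8 to 20.7 CPM) in every library but Per1-/- day 7, and the other 7 had 1.97 to 6.91 CPM. Mesothelial-like over Schwann-like cells came next, higher in 8 of 9 libraries, but did not pass (adjusted p = 0.0563, exact).

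Neuron-like cells had 5.45, 6.51 and 4.32 CPM of Rtn4rl1 in the WT libraries of days 4, 7 and 10, 7.69, 9.03 and 9.71 CPM in the Per1-/- libraries and 5.14, 6.19 and 4.73 CPM in the Per2-/- libraries. The Per1-/- library was the highest on all 3 days, the opposite of macrophage-like cells, but the fitted fold of 0.68 ± 0.18 on the log2 scale did not pass (adjusted p = 0.941). The genotypes filled the clusters of the class unequally, with 17.9% of Per1-/- and 9.88% of WT cells in the Htr3a cluster on day 7. Within the Lhx3 cluster, the only one of the class given here for Rtn4rl1, it was at 7.64, 10.1 and 6.08 CPM on day 4, 16.1, 9.03 and 17.98 CPM on day 7 and 18.5, 17.5 and 18.6 CPM on day 10 in WT, Per1-/- and Per2-/- libraries. There Per1-/- was the highest on day 4 and the lowest on day 7. The day 10 values came from only 11, 44 and 41 cells, and no order is read from them. Both clusters are described below. The mean difference of Per1-/- from WT in log2(CPM + 1) was 0.62 here and 0.34 to 0.39 over the other seeds, in 1 of which Per1-/- was above WT on only 2 of 3 days. In fibroblast-like cells the genotypes overlapped over the days, at 4.04, 5.11 and 6.798 CPM in WT, 3.43, 3.71 and 7.66 CPM in Per1-/- and 2.92, 3.702 and 6.09 CPM in Per2-/- libraries. The Per2-/- library was the lowest on each day, with ratios to WT of 0.722 [0.602-0.864], 0.724 [0.641-0.817] and 0.896 [0.782-1.03], but did not pass in edgeR. The Per1-/- to WT fold of fibroblast-like cells was -0.13 ± 0.15 on the log2 scale (adjusted p = 0.941, edgeR). The level of Rtn4rl1 in fibroblast-like cells rose from day 4 to day 10 with a log2 fold of 0.98 ± 0.15 (adjusted p = 0.00893), while the Steap4 and Pcolce2 clusters described below for Lingo1 took a larger share of the class. In the Steap4 cluster alone Rtn4rl1 was at 2.17, 3.69 and 4.54 CPM on day 4, from 3, 9 and 6 UMIs, and 6.69, 6.92 and 5.003 CPM on day 10 in WT, Per1-/- and Per2-/- libraries, and the part of that shift was not tested. In the 7 clusters with over 10 markers together it went from 2.71, 2.45 and 1.97 CPM to 4.97, 6.91 and 4.55 CPM. The corresponding fold in neuron-like cells was 0.05 ± 0.19 (adjusted p = 0.858). The neuron-like value depended on the seed: the mean difference of day 10 from day 4 in log2(CPM + 1) was -0.03 here, and -0.47 to -0.12 over the other seeds, with day 10 lower in every genotype under each of them. The clusters that made up the neuron-like class also changed with time, as given below for Lingo1, and their part in this value was not tested.

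Skeletal muscle-like cells had 11.3 to 20.4 CPM of Rtn4rl1 in WT, 12.1 to 17.1 CPM in Per1-/- and 10.8 to 20.7 CPM in Per2-/- libraries. The mean difference of Per1-/- from WT in log2(CPM + 1) was -0.12 in this class, but -0.10 to 0.81 over the other seeds, with Per1-/- higher on all 3 days in 3 of the 4, so no order of genotypes is read from it. In astrocyte-like cells the gene was at 5.78, 10.7 and 13.2 CPM in WT, 5.26, 3.39 and 14.4 CPM in Per2-/- and 3.72, 1.96 and 3.07 CPM in Per1-/- libraries, again lowest in Per1-/- on all 3 days. These Per1-/- values rested on 13, 3 and 2 UMIs. A permutation of genotypes within days gave p = 0.03704, the smallest value the design allows, and an adjusted p of 0.111 over the 6 classes other than macrophages (exact, 2-sided, log2 difference of Per1-/- from the mean of the other genotypes -1.20). The same test gave a log2 difference of 0.62 in neuron-like cells (p = 0.03704, adjusted p = 0.111, exact). A class at the smallest p could pass after correction only if most of the 6 classes were at it, so these adjusted values decide nothing. The 14 macrophage markers summed to 16.7 to 1502 CPM in astrocyte-like cells, the top value being that of the 19 Per1-/- day 10 cells, and to 22724 to 30250 CPM in macrophage-like cells; the part of other cells' RNA in the astrocyte values was not tested.

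Rtn4rl1 lies on chromosome 11 at 75193783 to 75267769 of the plus strand (mm10), 6.099 Mb from Per1, which starts at 69095217. Of the genes that start within 1 Mb of it, 30 others were tested in macrophage-like cells, and their median log2 fold in Per1-/- against WT was 0.01. Ovca2, the tested gene with the nearest start, had -0.15 ± 0.32, and Rpa1, a subunit of the single-stranded DNA binding complex and the nearest on the other side, had -0.08 ± 0.13. Only Rflnb (-1.42 ± 0.64, at 1.37 CPM) and Tlcd2 (1.11 ± 0.36, at 2.29 CPM) reached a 2-fold difference, 6.67% of the 30 genes against 6.41% of all genes tested. Between Per1 and Rtn4rl1, 4 of 99 tested genes reached a 2-fold difference: Efnb3 (-1.51 ± 0.73), Atp1b2 (-1.46 ± 0.62), Acap1 (1.59 ± 0.84) and Nlrp1a (-2.44 ± 0.39), which are named because of their values and all averaged under 2 CPM. Loss of Per1 and any other difference linked to Per1 on this chromosome cannot be told apart here, and the part of neither was tested.

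**Figure D3:**
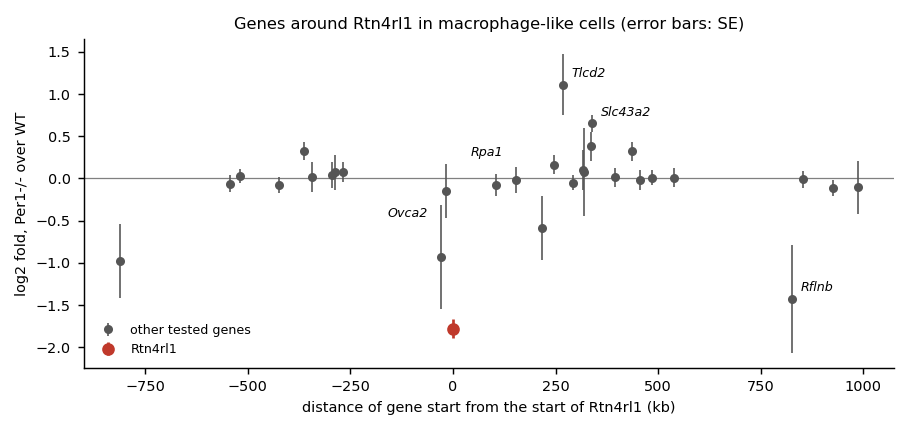
Log2 fold of Per1-/- against WT in macrophage-like cells (vertical axis, SE as bars) for Rtn4rl1 and the 30 other tested genes that start within 1 Mb of it, by distance from its start in kb (horizontal axis). Rtn4rl1 is at -1.78, Ovca2 and Rpa1, the nearest tested genes on either side, are at -0.15 and -0.08, and Rflnb and Tlcd2 are past 2-fold.

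The genes whose log2(CPM + 1) followed Rtn4rl1 most closely over the 9 macrophage-like sums, among 9326 genes compared, were Fiz1 (0.969), Rora (0.954), Cnp (0.951), Ccdc97 (0.946) and Nedd9 (0.922) by Pearson's r. Their spread was far smaller, as Fiz1 averaged 19.1 CPM in WT, 16.1 CPM in Per1-/- and 19.1 CPM in Per2-/- macrophage-like cells. Over the 63 sums of all classes, genes among the closest were Tmcc3 (0.846), 2310040G24Rik (0.791), Rgs2 (0.787) and Id2 (0.778). The 9 or 63 sums share libraries and depth, and these values are descriptions.

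The other 2 receptors were scarce. Rtn4r, which encodes the founding receptor NgR1 for NOGO, MAG and OMgp, had 2092 of its 2274 UMIs in fibroblast-like cells, at 2.402 ± 0.479 CPM (SD, 9 libraries; lowest 1.86, highest 3.07). Mesothelial-like cells had a like mean of 2.41 ± 3.32 CPM from 24 UMIs. The level in fibroblast-like cells was above that in Schwann-like cells, the next in order, in 8 of 9 libraries (adjusted p = 0.0417, exact sign-flip permutation). Macrophage-like cells held 16 UMIs of Rtn4r in all, or 0.183 ± 0.284 CPM. Rtn4rl2, the receptor known to bind MAG, had 12 UMIs in all named classes, of which 6 were in astrocyte-like and 5 in neuron-like cells. Its 0 UMIs in 157627427 of macrophage-like cells allow a level of up to 0.09297 to 0.7997 CPM in single libraries, on a floor of 3 counts per library.

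**Figure D4:**
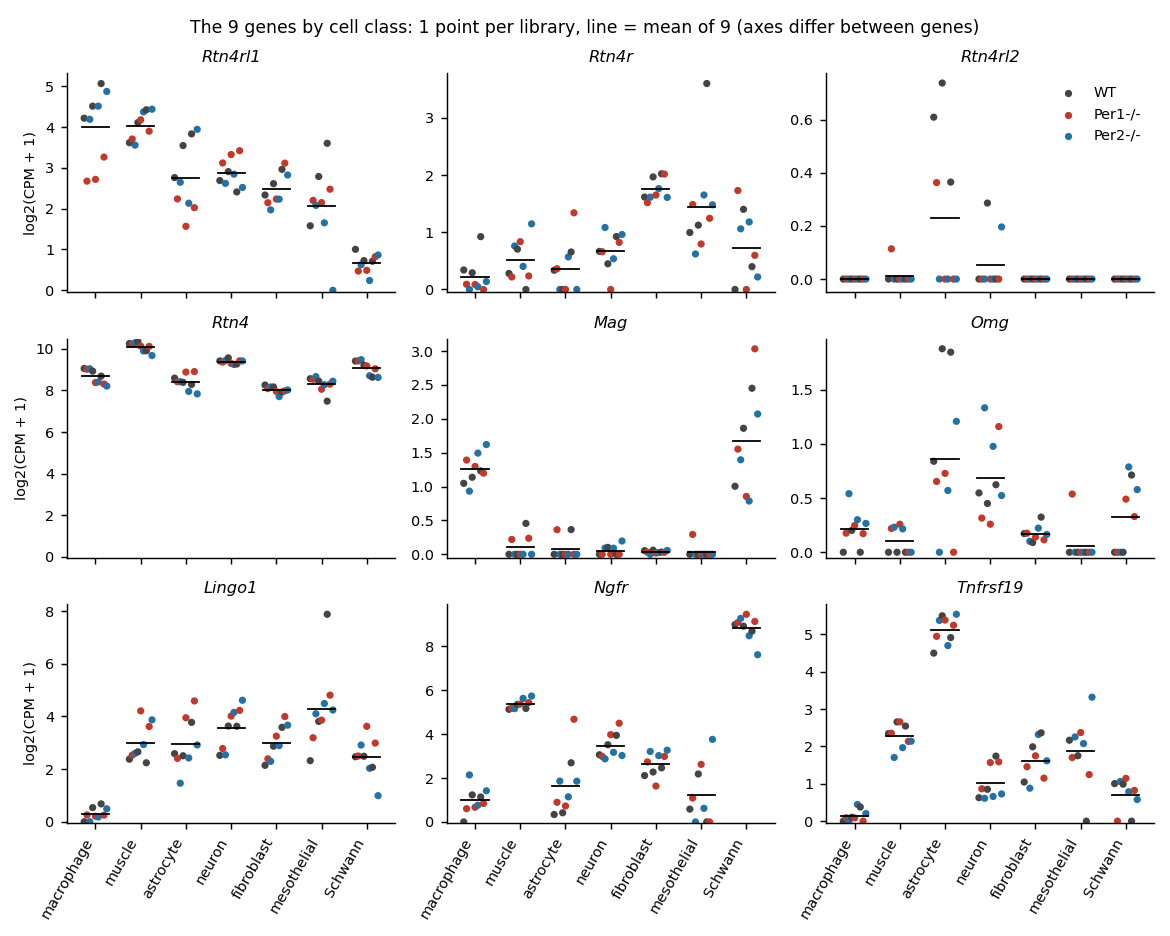
Log2(CPM + 1) (vertical axis, separate for each gene) of the 9 genes in 7 cell classes (horizontal axis). Each point is 1 library, coloured by genotype, and the line is the mean of 9 libraries; Ngfr is highest in Schwann-like, Tnfrsf19 in astrocyte-like and Rtn4 in skeletal muscle-like cells, and Mag is seen in Schwann-like and macrophage-like cells.

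Among the ligands, Rtn4 was found in every class. Its mean was 1109 ± 163 CPM (SD) in skeletal muscle-like, 670 ± 46.6 in neuron-like, 555 ± 128 in Schwann-like, 418 ± 99.2 in macrophage-like and 262 ± 29.4 in fibroblast-like cells. The level in muscle-like cells exceeded that in neuron-like cells in 9 of 9 libraries (adjusted p = 0.0268, exact sign-flip permutation), with means of 862 to 1246 and 618 to 623 CPM over the other seeds. Schwann-like exceeded macrophage-like cells in 8 of 9 (adjusted p = 0.0417, same exact test). In macrophage-like cells Rtn4 was at 532, 488 and 412 CPM on days 4, 7 and 10 in WT libraries, at 520, 332 and 317 CPM in Per1-/- libraries and at 526, 340 and 296 CPM in Per2-/- libraries. The day 10 values lay below the day 4 values in every genotype, with a log2 fold of -0.59 ± 0.12 (adjusted p = 0.0169), a call lost with a Y-linked covariate (-0.47, adjusted p = 0.125) and without the Per1-/- or Per2-/- library of day 4 or day 10 (adjusted p = 0.0557 to 0.0805, edgeR). It was also lost in the marker gate (-0.66, adjusted p = 0.163) and with the unnamed cluster added (-0.71, adjusted p = 0.0554, edgeR). The C5ar1 cluster, whose share of the class shrank with time as given above, was the highest in Rtn4, at 641, 579 and 609 CPM on day 4 and 544, 397 and 484 CPM on day 10 in WT, Per1-/- and Per2-/- cells. The main cluster had 408, 381 and 365 CPM on day 4 and 364, 296 and 279 CPM on day 10. Both were lower on day 10 in each genotype, and the part of the shift between clusters in the fall of the class was not tested. For genotype, the log2 folds of the class were -0.24 ± 0.12 for Per1-/- (description only) and -0.26 ± 0.12 for Per2-/-, which did not pass (adjusted p = 0.321).

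Mag, the myelin-associated glycoprotein of glia, was detected in macrophage-like cells of all 9 libraries, at 0.908 CPM in the lowest, 1.35 CPM in the middle and 2.07 CPM in the highest library (4 to 55 UMIs each, 242 in all). That exceeded skeletal muscle-like cells, the next in order, in 9 of 9 libraries (adjusted p = 0.0268, exact sign-flip permutation), and the means of the 5 classes below were all under 0.1 CPM. In Schwann-like cells, where myelin genes belong, Mag was at 1.01, 1.93 and 1.63 CPM on day 4 and 4.47, 7.18 and 3.2 CPM on day 10 in WT, Per1-/- and Per2-/- libraries, and the day 10 values were higher in each genotype (no test). The class held 105 UMIs of Mag in all 9 libraries together, so these values rest on few counts. The lowest library of the class, at 0.724 CPM, was one of day 7. The day 10 libraries also differed in software version and annotation. The difference between Schwann-like and macrophage-like cells did not pass (adjusted p = 0.3505, exact). All 3 macrophage clusters held it, in at least 8 libraries each. Omg, whose product OMgp is tied to the membranes of neurons and oligodendrocytes, averaged 0.0501 to 1.01 CPM over the classes with 265 UMIs in all, and no neighbouring classes differed after correction. In skeletal muscle-like cells its mean was 0.0773 CPM here but 0.367 to 1.1 CPM over the other seeds.

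The co-receptors were nearly absent from macrophage-like cells. Lingo1, Tnfrsf19 and Ngfr had 36, 20 and 147 UMIs there, or means of 0.236, 0.113 and 1.13 CPM. Fibroblast-like cells of the same libraries had means of 7.82 CPM of Lingo1, 2.27 CPM of Tnfrsf19 and 5.59 CPM of Ngfr. The lowest class for each of the 3 co-receptors was the macrophage-like one, below the next class in 9, 7 and 5 of 9 libraries, a difference that passed only for Lingo1 (adjusted p = 0.0268, 0.115 and 0.798, exact sign-flip permutation).

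Ngfr, the neurotrophin receptor p75, which is known from neural crest cells and immature Schwann cells, was highest in Schwann-like cells at 486 ± 150 CPM (SD; 195 in the lowest and 702 in the highest library). Skeletal muscle-like cells followed with 40.2 ± 6.52 CPM (29.3 to 35.98 CPM over the other seeds), which was above the neuron-like level in 9 of 9 libraries, and both steps passed (adjusted p = 0.0268 each, exact sign-flip permutation). Ngfr in fibroblast-like cells was at 3.32, 3.83 and 4.51 CPM in WT, 5.66, 2.104 and 6.91 CPM in Per1-/- and 8.25, 7.12 and 8.63 CPM in Per2-/- libraries of days 4, 7 and 10. The 3 Per2-/- values lay above all 6 others. The genotypes lay in different clusters of the class: a cluster led by Alx1 and Cyp26b1, at 18.7 CPM in Per2-/- and 7.796 CPM in WT, held 37.1% of Per2-/- and 3.32% of WT cells on day 4, one led by Adamts3 and Tnn held 48.3% and 20.8% on day 7, and the Pcolce2 cluster described below held 43.96% and 0.2601% on day 10. Their part in the difference was not tested. The log2 fold of Per2-/- against WT was 1.08 ± 0.30, which did not pass in edgeR (adjusted p = 0.373) and passed in DESeq2. Tnfrsf19, which encodes TROY, was highest in astrocyte-like cells at 34.7 ± 8.64 CPM, above muscle-like cells (3.95 ± 1.06 CPM, or 2.69 to 6.97 CPM over the other seeds) in 9 of 9 libraries (adjusted p = 0.0268, exact sign-flip permutation).

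Lingo1, the shared partner of both co-receptor arms, rose from day 4 to day 10 in neuron-like and fibroblast-like cells. In neuron-like cells it was at 4.73, 5.86 and 4.81 CPM on day 4 in WT, Per1-/- and Per2-/- libraries, at 11.4, 15.1 and 16.8 CPM on day 7 and at 11.3, 17.7 and 23.4 CPM on day 10. Every day 7 and day 10 library lay above every day 4 library, and the first of these steps was between libraries of the same software version. The Per1-/- libraries of days 4 and 7 differed in Xist, as given above. The log2 fold from day 4 to day 10 was 1.78 ± 0.19 (adjusted p = 0.000163), in a comparison in which 39% of all 14730 genes passed. Its mean difference of day 10 from day 4 in log2(CPM + 1) was 1.54, and 1.53 to 1.68 over the other seeds. Schwann-like cells went the other way in 2 of 3 genotypes, with a mean difference of -0.61 (no test).

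The neuron-like class was made of different clusters on the 2 days. On day 4 a cluster led by Lhx3, Miat and Rgs4 held 66.5, 67.2 and 67.5% of its cells in WT, Per1-/- and Per2-/- libraries, and one led by genes that included Scg2 and Syt4 held 30.1, 27.2 and 26.1%. On day 10 the Lhx3 cluster held 3.63, 10.3 and 4.79%, and most cells lay in a cluster led by Snhg11, Caly and Stmn3 (48.5, 43.7 and 68.5%, against 0.836, 2.9 and 1.94% on day 4) or in one led by Htr3a and Ecel1 (24.1, 27.9 and 10.5%, against 2.56, 2.69 and 4.54%). Lingo1 in the Lhx3 cluster was at 3.46, 4.74 and 3.75 CPM on day 4 and 13.9, 15.3 and 10.3 CPM on day 10, the latter from only 3, 7 and 5 UMIs. The Scg2 cluster had 6.44, 7.65 and 6.705 CPM on day 4 and 6.35, 10.5 and 11.3 CPM on day 10, the latter from 6, 10 and 23 UMIs. In the Htr3a cluster it was at 11.8, 9.58 and 7.503 CPM on day 4 and 5.21, 21.8 and 21.2 CPM on day 10, lower in WT, from 12 and 8 UMIs, and higher in the other genotypes. In the Snhg11 cluster it was at 16.1, 17.3 and 26.9 CPM on day 10, and the part of the change of clusters in the fold of the class was not tested.

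Of the 7 members that passed the filter in neuron-like cells, 3 were called from day 4 to day 10, all higher, where 39% of all genes were called, and the other 2 calls were less firm than that of Lingo1. Ngfr was at 7.33, 6.897 and 6.33 CPM on day 4 and 14.4, 21.6 and 7.14 CPM on day 10 in WT, Per1-/- and Per2-/- libraries (log2 fold 1.01 ± 0.23, adjusted p = 0.00792), a call lost without the Per1-/- day 10 library (0.74, adjusted p = 0.0518). Tnfrsf19 had 0.545, 0.824 and 0.528 CPM on day 4 and 2.34, 2.003 and 0.655 CPM on day 10 (log2 fold 1.35 ± 0.44, adjusted p = 0.0371), a call lost in DESeq2, with a Y-linked covariate and without any 1 of the WT or Per1-/- libraries of days 4 and 10 or the Per2-/- day 7 library. Both also moved with the borders of the class, and the change of clusters applies to them too. The mean difference of day 10 from day 4 in log2(CPM + 1) was 0.85 for Ngfr and 0.65 for Tnfrsf19, but 0.17 to 0.47 and -0.25 to 0.25 over the other seeds, where Tnfrsf19 turned its direction in 2 of 4.

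Fibroblast-like cells had 3.41, 4.23 and 3.89 CPM of Lingo1 on day 4 in the same order of genotypes, 6.3, 8.504 and 6.41 CPM on day 7 and 10.99, 14.9 and 11.7 CPM on day 10. The 3 days did not overlap, and the log2 fold from day 4 to day 10 was 1.68 ± 0.11 (adjusted p = 0.000201), where 14% of 16711 genes passed. In this comparison 2 of the 7 members tested passed, Lingo1 and Rtn4rl1, both higher. The clusters of this class changed too. One led by Steap4, Ebf2 and Adh1 held 1.86, 1.76 and 1.81% of fibroblast-like cells on day 4 and 21.7, 68.99 and 10.5% on day 10 in WT, Per1-/- and Per2-/- libraries, and one led by Pcolce2, Mia and Msmp held 43.96% of the Per2-/- cells of day 10 and 0 of those of day 4. Within the Steap4 cluster Lingo1 was at 5.06, 7.38 and 8.33 CPM on day 4, from 7, 18 and 11 UMIs, and 11.8, 14.3 and 13.5 CPM on day 10. The part of these shifts in the folds of day and genotype was not tested. The Per1-/- library had the highest Lingo1 level of fibroblast-like cells on each day, with a fold of 0.45 ± 0.11 on the log2 scale that did not pass (adjusted p = 0.559). In mesothelial-like cells a value of 234 CPM came from 21 UMIs in 12 cells of the WT day 10 library, against 3.98 to 26.95 CPM in the other 8.

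**Figure D5:**
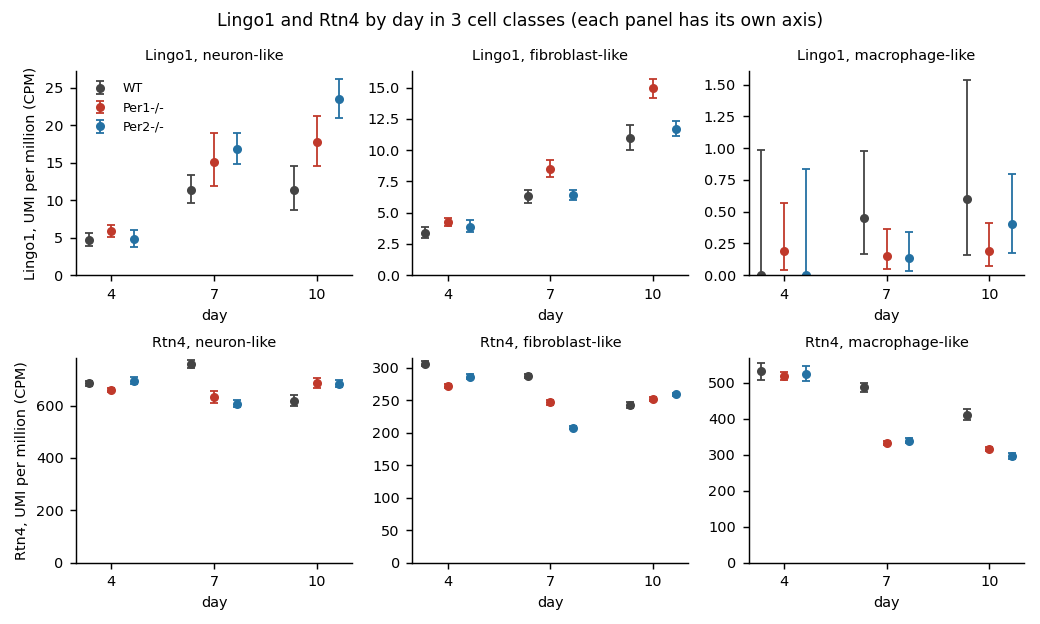
Lingo1 (top) and Rtn4 (bottom) in CPM (vertical axes, linear, separate for each panel) by day (horizontal axis) in neuron-like, fibroblast-like and macrophage-like cells. Points are single libraries with exact 95% Poisson intervals; Lingo1 goes from 4.73 to 5.86 CPM on day 4 to 11.3 to 23.4 CPM on day 10 in neuron-like cells, and Rtn4 from 520 to 532 CPM to 296 to 412 CPM in macrophage-like cells.

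In edgeR, no member passed for genotype in neuron-like or fibroblast-like cells. In neuron-like cells 0 of 7 members passed for Per1-/- (0% of all genes; 589 at an unadjusted p under 0.05 and 16 in DESeq2) and 0 of 7 for Per2-/- (0% of all genes; 711 unadjusted and 18 in DESeq2). In fibroblast-like cells 0 of 7 passed for Per1-/- (0% of all genes; 1151 unadjusted and 107 in DESeq2) and for Per2-/- (0%; 1612 unadjusted and 239 in DESeq2). Of the members, DESeq2 called 0 for Per1-/- or Per2-/- in neuron-like cells and for Per1-/- in fibroblast-like cells, and 1, Ngfr, for Per2-/- in fibroblast-like cells.

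A list of 38 partner genes of the pathway was read beside the members. In macrophage-like cells 30 were tested, and 0 passed for Per1-/- or Per2-/- in edgeR, with median log2 folds of -0.11 and -0.09 against 0.01 and 0.00 over all genes. The gene of each role with the most counts in these cells, which depend on the gene as well as its level, was Rtn3 among the reticulons other than Rtn4 (223 ± 15.3 CPM), Lingo2 among other LINGO proteins (0.587 ± 0.757), Lrp1, an endocytic receptor, among other receptors (493 ± 125), Olfm1 among binding partners of Nogo receptors (6.33 ± 3.23), Vcan among proteoglycans (10.9 ± 7.45) and Cfl1, the actin-severing cofilin, in the intracellular signalling branch (1583 ± 187).

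From day 4 to day 10, 4 of the 30 passed in macrophage-like cells, no larger a share than the 14.6% of all genes, and the shift between clusters was not taken out. Tspan3, a tetraspanin receptor for NOGO, rose (log2 fold 0.55 ± 0.15, adjusted p = 0.0404), as did Rhob (0.37 ± 0.09, adjusted p = 0.0288), while its relative Rhoc fell (-0.80 ± 0.22, adjusted p = 0.0456). Tspan3 went from 55.98, 60.9 and 52.9 CPM on day 4 to 90.4, 63.7 and 92.9 CPM on day 10 in WT, Per1-/- and Per2-/- libraries, nearly flat in Per1-/-. Rhoc went from 45.05, 67.1 and 53.1 CPM to 44.15, 22.5 and 29.8 CPM in the same order, nearly flat in WT. The partner genes were not read in the marker gate or with the unnamed cluster added. Cspg4, the NG2 proteoglycan, fell from 7.46, 5.12 and 7.03 CPM on day 4 to 1.796, 0.568 and 0.506 CPM on day 10 in WT, Per1-/- and Per2-/- libraries (log2 fold -2.98 ± 0.46, adjusted p = 0.00763). Cspg4 averaged 18.9 CPM in fibroblast-like cells, and the 15 fibroblast markers summed to 557 to 598 CPM in macrophage-like cells on day 4 and 451 to 1659 CPM on day 10; their part in the Cspg4 values was not tested.

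In neuron-like cells 20 of 37 tested partner genes passed from day 4 to day 10, 14 higher and 6 lower, with a median log2 fold of 0.17 against 0.01 over all genes. In that comparison 39% of all genes were called, the borders of the class moved with the seed, and the partner genes were not read over the other seeds. The Snhg11 cluster, whose leading genes include the neuronal genes Stmn3 and Mapt, held 0.836 to 2.9% of the class on day 4 and 43.7 to 68.5% on day 10, and its part in the calls below was not tested. All 3 reticulons tested rose, and Rtn1, a neuronal reticulon, went from 190, 268 and 224 CPM on day 4 to 839, 709 and 1126 CPM on day 10 in WT, Per1-/- and Per2-/- libraries. The log2 folds of Rtn3 and Rtn2 were 0.62 ± 0.09 and 0.52 ± 0.08. Among LINGO proteins Lingo3 (3.24 ± 0.61, at 1.799 CPM or less in every library) and Lingo2 (0.93 ± 0.13) rose, and Lingo4 fell from 4.48 to 5.52 CPM on day 4 to 1.31 to 2.34 CPM on day 10.

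Of 7 binding partners of Nogo receptors, 3 rose and 1 fell in neuron-like cells. Adgrb1 (2.28 ± 0.29) and Adgrb3 (1.95 ± 0.20), adhesion receptors of the BAI family that bind Nogo receptors at synapses, rose with Lgi1 (3.02 ± 0.28), a secreted synaptic protein, and the third BAI receptor, Adgrb2, fell (-0.35 ± 0.11). Among proteoglycans Cspg5, a neuronal one, rose (1.68 ± 0.24).

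Among other receptors of these ligands in neuron-like cells, S1pr2, a receptor for NOGO (0.74 ± 0.22), Ptprf (0.66 ± 0.12) and Tspan3 (0.25 ± 0.09) rose and Ptprs (-0.31 ± 0.08), a receptor for chondroitin sulfate, fell. S1pr2 averaged 48.7 CPM in fibroblast-like cells. The 15 fibroblast markers summed to 699 to 1075 CPM in neuron-like cells on day 4 and 1065 to 3174 CPM on day 10. Their part in the S1pr2 values was not tested. In the intracellular signalling branch the collapsin response mediator Dpysl2 (0.77 ± 0.11) and Limk2 (0.39 ± 0.12) rose, and the RhoA-driven kinases Rock1 (-0.46 ± 0.10) and Rock2 (-0.32 ± 0.10) fell with Wnk1 (-0.33 ± 0.11). All 20 had an adjusted p of 0.0483 or less. For none of the 37 genes did either genotype pass in edgeR.

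In fibroblast-like cells 4 of 36 partner genes passed from day 4 to day 10, no larger a share than the 14% of all genes, again with the shift between clusters left in. Adgrb3 (1.57 ± 0.21, adjusted p = 0.00525), Olfm1 (0.84 ± 0.14, adjusted p = 0.0111) and Tspan3 (0.33 ± 0.08, adjusted p = 0.0406) rose and Cfl1 fell (-0.44 ± 0.09, adjusted p = 0.0257). None passed for either genotype in edgeR. Adgrb3 and Tspan3 thus passed in both neuron-like and fibroblast-like cells, in the same direction.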

How the data were processed

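The deposited files held, per the labels and their values, raw UMI counts per gene and cell barcode from a 10x 3′ v3.1 kit, which the authors made with Cell Ranger (7.1 in the submitters' processing notes on mm10; the file headers name 4.0.0 on days 4 and 7 and 6.0.0 on day 10). The 30406 gene identifiers shared by tables of 31053 and 32285 were used. Barcodes with at least 3000 UMIs and at most 20% mitochondrial UMIs were kept. Of these 81989, 8442 with the highest simulated-doublet scores were left out (a share set by library size). Cells of all libraries were clustered together without batch correction (scanpy 1.11.5, leidenalg 0.10.2, 2000 variable genes, 30 components, resolution 1) into 29 clusters, and again with 4 other random seeds, where each class was rebuilt from the clusters holding mostly its cells. A cluster took a class name where its markers averaged 2-fold or more above the other cells with at least 3 of them that high. Fibroblast-like clusters instead needed 10 of 15 markers present in 50% of cells and near their highest level, with no other class standing out, limits set with the data known. Other clusters, also 1 with high macrophage markers and few UMIs per cell, stayed unnamed and outside the comparisons of classes.

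Counts were summed per class and library and fitted with edgeR 4.0.16 (quasi-likelihood, TMM, filterByExpr, day and genotype as terms, Benjamini-Hochberg over all tested genes), after a check on simulated counts. DESeq2 1.42.0, median-of-ratios factors, no filter, doublets kept, a Y-linked covariate and leaving out each library were alternatives. Class levels were compared by exact sign-flip tests on log2(CPM + 1). Members, partner genes, markers and lists were chosen with earlier results of these data known. Named were all members, partner genes passing an adjusted p of 0.05 with the one of most counts in each role, the 5 genes closest to Rtn4rl1 in each of 2 sets of sums (genes of at least 5 CPM in macrophage-like cells; 1 of them is not reported here), and, near Rtn4rl1, the nearest tested genes and those past 2-fold. The splits of classes by cluster, Siglech, Xist and Y-linked UMIs, the other seeds, the unnamed cluster and the permutation within days were added after the data were seen.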

Additional observations from a re-analysis of the deposited data

Results flagged for a closer look

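For Per1-/- against WT, Rtn4rl1 was higher in Per1-/- on all 3 days in neuron-like cells and lower on all 3 days in macrophage-like cells, with mean log2 ratios apart by 2.58. With 1 of 4 other seeds of the clustering it was higher on only 2 of the 3 days in neuron-like cells. Within the Lhx3 cluster of neuron-like cells Per1-/- was below WT on day 7 (9.03 against 16.1 CPM, from 118 and 267 cells). On day 10 the values were 17.5 and 18.5 CPM from only 44 and 11 cells, too few to read an order. The shares of the clusters differed between genotypes, and Rtn4rl1 is not given for the other neuron-like clusters. Per1-/- against WT is the contrast by which Rtn4rl1 was chosen, and the difference between the classes was not tested. For Per2-/- against WT, Ngfr was higher in Per2-/- on all 3 days in fibroblast-like and in skeletal muscle-like cells and lower on all 3 days in neuron-like cells. The mean log2 ratios were apart by 1.58 between fibroblast-like and neuron-like cells and by 0.835 between muscle-like and neuron-like cells, and neither difference was tested. Over the other seeds the mean log2(CPM + 1) difference was -0.43 to -0.30 in neuron-like cells, 0.71 to 1.06 in fibroblast-like cells and -0.75 to 0.23 in muscle-like cells, where Per2-/- was lower on all 3 days in 3 of 4 seeds, so the muscle-like direction did not hold. Ngfr in neuron-like cells averaged 5.15 to 5.61 CPM over those seeds against 10.8 CPM here, and Per2-/- and WT fibroblast-like cells lay in different clusters.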

How the results depend on the processing

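The log2 fold of Rtn4rl1 in Per1-/- against WT macrophage-like cells was -1.82 to -1.72 when single libraries were left out, and -1.82 to -1.65 in the other refits. Its mean log2 ratio over days was -1.86, against -2.44 in the main cluster, -2.02 in the C5ar1 cluster, -0.60 in the Siglech cluster, -2.02 in cells without and -0.81 in cells with a Siglech UMI, -1.71 in Y-linked cells without Xist -1.68 in cells gated on markers and -1.59 with the unnamed cluster added. Of 126 refits of the 9 counts of members called, 118 gave a count within 1.5 times. The counts for Per2-/-, and those for Per1-/- outside macrophages, were 0 where 0 of all genes passed. The count for Per1-/- in macrophage-like cells came from the contrast that chose Rtn4rl1. The 118 therefore do not measure how stable the calls with time were. With the Y-linked covariate 0 members were called for Per1-/- in macrophage-like cells and 1 from day 4 to day 10, and DESeq2 called 1 (Ngfr) for Per2-/- in fibroblast-like cells. With a library left out, 1 to 2 members were called from day 4 to day 10 in macrophage-like cells (1 without the Per1-/- or Per2-/- library of day 4 or day 10), 1 to 3 in neuron-like cells (1 without Per1-/- day 10) and 2 to 3 in fibroblast-like cells. Of neighbouring pairs of classes, 9 were called, and 0 to 10 with a library left out, where 8 libraries give no p below 0.00781; 0 were called without WT day 4, Per2-/- day 4 or any library of day 7. Thinning to 5000 UMIs moved the mean share of macrophage-like cells with a Rtn4rl1 UMI from 37.5% to 11.3% in WT, 13.4% to 3.12% in Per1-/- and 32.3% to 11.04% in Per2-/- libraries.

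Counts over all genes moved more. In macrophage-like cells Per1-/- against WT gave 3 calls, 111 with DESeq2, 75 with no filter, 1 with doublets kept, 0 with the Y-linked covariate and 1 to 28 with a library left out; Per2-/- gave 0, 283 with DESeq2, 206 with no filter and 0 to 843 (more than 0 without Per2-/- day 4, Per2-/- day 7 or WT day 4); day 10 against day 4 gave 1889, 202 with the covariate and 497 to 2016. In neuron-like cells Per1-/- gave 0, 16 with DESeq2, 26 with no filter and 0 to 13 with a library left out; Per2-/- gave 0, 18 with DESeq2, 42 with no filter, 4 with the covariate and 0 to 2. In fibroblast-like cells Per1-/- gave 0, 107 with DESeq2 and 0 to 147; Per2-/- gave 0, 239 with DESeq2 and 0 to 34; day 10 against day 4 gave 2341 and 910 to 1801. The causes were not tested. The day 10 calls of Rtn4rl1 (macrophage-like, fibroblast-like) and Lingo1 (neuron-like, fibroblast-like) held in each refit planned, but those of Rtn4rl1 and Rtn4 in macrophage-like cells were lost in the marker gate and with the unnamed cluster of macrophage markers added, both tried after the data were seen. In simulated counts of these libraries, 83% of genes changed 2-fold by Per1-/- were called in macrophage-like, 87% in neuron-like and 74% in fibroblast-like cells. The changed genes were drawn from the better-counted ones, and simulated scatter followed the trend over genes without differences between single genes. These shares therefore do not give the power of the real fits, and absent calls for genotype do not show absent differences. No paired analysis was possible because the replicate number, 1 in every group, pairs no libraries; day was a term of the fits, and classes were compared within libraries.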
